A study of Mus musculus with 12 samples.

Results

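Macrophages are leukocytes that live in adipose tissue beside the fat cells, and the genes they express were followed here across fat tissue and fat cells made in culture. The 37 genes were taken from a fixed list of macrophage markers, receptors and effectors, and each was found on the array with exactly 1 probe set that names that gene alone, so 37 of the 19938 genes tested are described. Total RNA was hybridised to 12 Affymetrix arrays, with 3 biological replicates in each of 4 groups. The first group was adipocytes derived from 3T3-L1 cells, an immortal line of mouse fibroblasts. The second was adipocytes derived from primary mouse embryonic fibroblasts (PMEF), and the third was adipocytes made from embryonic stem (ES) cells of the mouse. Whole tissue made up the last group, labelled eWAT (commonly short for epididymal white adipose tissue) and isolated from wild-type mice described as healthy. No allele, transgene or drug treatment is named for any group, and the sources used here do not state culture conditions, strain, sex or age. They likewise do not state how many lines stood behind the PMEF and ES cultures, or whether tissue from several mice was pooled.

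Macrophages arise from blood monocytes or from embryonic precursors, and their survival depends on the receptor encoded by Csf1r, which binds the growth factors encoded by Csf1 and Il34. The transcription factor PU.1, encoded by Spi1, is required for the lineage. In fat, macrophages clear dying adipocytes, take up lipid and iron, and secrete complement and cytokines, and residents of lean fat often carry Mrc1, Cd163, Lyve1, Folr2 and Timd4. Several of the 37 genes are not limited to macrophages. Ptprc marks nearly all leukocytes, Itgam and Fcer1g occur in other myeloid cells, Lyve1 also marks lymphatic vessels, and Cd68 encodes a lysosomal protein that many cells can express.

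Values are log2 intensities as deposited, so a step of 1 is a doubling of the signal. A difference was called when its limma adjusted p, corrected over all 19938 genes by the Benjamini-Hochberg method, was under 0.05, and the words rose and fell are used for called differences alone. With 3 biological replicates a group, the p-values rest on the spread between these replicates, pooled for each gene over all the groups. The median SD of the macrophage genes was 0.48 in eWAT, and 0.14, 0.12 and 0.13 in 3T3-L1, PMEF and ES adipocytes. P-values and missed calls between culture models therefore also include the spread of the eWAT arrays. Because each array holds RNA from a whole culture or tissue piece, fewer cells of a type and less RNA per cell cannot be told apart. As a rough guide to background, chosen after the values were seen, the 95th percentile of 1035 olfactory receptor probe sets was taken on each array, and it lay between 5.06 and 5.45. Where a gene was under this guide on all 3 arrays of a culture group, its fold is given as "at least", against the guide instead of its own dim value. An adjusted p beside such a fold tests the fitted difference of the deposited values and not the bound. Adipoq (adiponectin), a defining adipocyte marker, had means of 11.49 in 3T3-L1, 11.99 in PMEF, 12.21 in ES adipocytes and 12.44 in eWAT, and of the 10 adipocyte genes listed only Lep (leptin) was under the guide in a group, at 4.52 in 3T3-L1. The epididymis list of 7 measured genes averaged 3.69 to 3.86 on the eWAT arrays, under the guide. Pearson r over genes ran from 0.992 to 0.997 within groups and from 0.899 to 0.965 across them, and genes are not independent replicates. The 3T3-L1 arrays had medians over genes of 6.11 to 6.12, against 6.31 to 6.35 in the other groups, and this offset matters for comparisons with them.

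Macrophage transcripts were abundant in eWAT and mostly at background in the cultures. The median level of the 37 genes was 8.64 in eWAT, 5.17 in PMEF, 4.86 in 3T3-L1 and 4.70 in ES adipocytes. On all 3 eWAT arrays 33 of the 37 genes were above the background guide. In PMEF adipocytes 13 genes were above it on all 3 arrays, and in 3T3-L1 and ES adipocytes 6 each were. The eWAT mean was the highest of the 4 groups for 34 genes, and the 3 that peaked elsewhere were Cd68 and Trem2 in 3T3-L1 and Vsig4 in PMEF adipocytes.

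The first question was how each culture model compares with the tissue. In 3T3-L1 adipocytes 33 of the 37 genes were lower than in eWAT, where 22.5% of all genes tested were called lower, and 2 were higher, where 30.8% of all genes were called higher. In PMEF adipocytes 33 were lower, against 21.6% of all genes, and 1 was higher, against 24.7%. In ES adipocytes 35 were lower, against 20.9% of all genes, and 1 was higher, against 28.8%. The median differences of the 37 genes from eWAT were -3.83 for 3T3-L1, -3.34 for PMEF and -3.82 for ES adipocytes on the log2 scale, beside medians over all genes of 0.05, 0.05 and 0.04. With the 25, 17 and 23 genes under the guide in a model set to their bounds, the medians were -3.10, -2.98 and -3.18. The 3 comparisons share the eWAT arrays. In all 3 models 32 genes were lower than in eWAT, and the other five were Cd68, Vsig4, Cx3cr1, Trem2 and Marco.

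**Figure D1:**
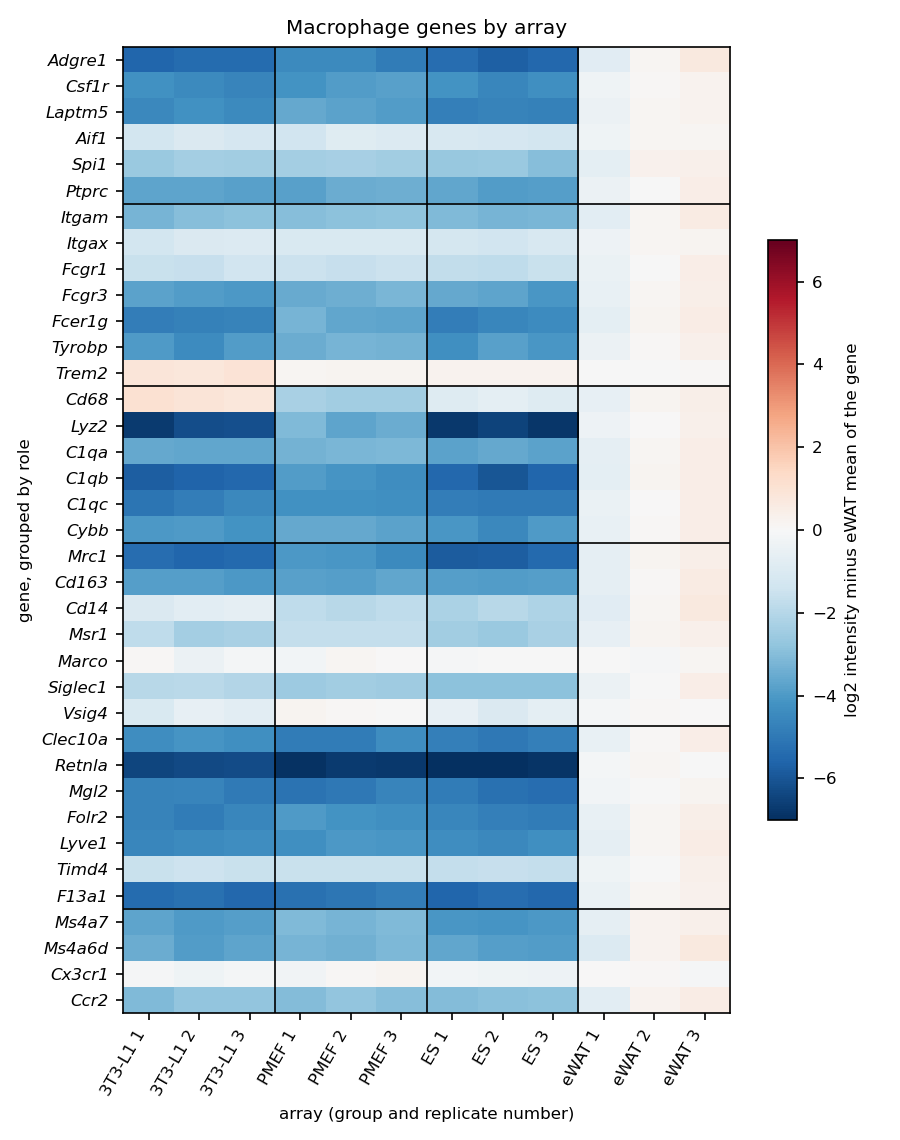
The 37 macrophage genes (rows, grouped by role between the horizontal lines) on the 12 arrays (columns), coloured by log2 intensity minus the gene's eWAT mean. Most rows are blue in all 9 culture arrays; Cd68 and Trem2 are reddish in 3T3-L1, Marco and Cx3cr1 are pale throughout, and the eWAT 1 column is pale blue in most rows while the other two eWAT columns are white to faintly red.

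Among genes of lineage identity, all 6 fell in each model. Adgre1, the classical surface marker of mouse macrophages, read 8.78, 9.73 and 10.24 on the eWAT arrays, 4.06, 4.22 and 4.21 in 3T3-L1, 5.13, 5.11 and 4.71 in PMEF, and 4.23, 3.87 and 4.08 in ES adipocytes. Every culture array was under the guide, and none overlapped eWAT. Its level was at least 20.9-fold lower in 3T3-L1 (limma adjusted p = 9.03e-10), at least 19.3-fold lower in PMEF (adjusted p = 7.24e-09) and at least 22.2-fold lower in ES adipocytes (adjusted p = 1.46e-09).

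Csf1r, the growth factor receptor on which macrophages depend, read 9.12, 9.48 and 9.66 in eWAT, 5.17, 4.94 and 4.78 in 3T3-L1, 5.26, 5.49 and 5.61 in PMEF, and 5.22, 4.87 and 5.15 in ES adipocytes. The culture arrays lay close together and far under the tissue, and all 3 PMEF arrays but none from 3T3-L1 were above the guide. Csf1r was at least 18.7-fold lower in 3T3-L1 and fell by 3.97 ± 0.15 in PMEF and by 4.34 ± 0.15 in ES adipocytes (log2, limma SE, n = 3 per group, adjusted p at most 9.97e-11). Spi1, which encodes PU.1, was at 6.75, 7.74 and 7.82 in eWAT and between 4.46 and 5.10 on the 9 culture arrays, all under the guide. It was at least 4.73-fold lower in 3T3-L1, 4.37-fold lower in PMEF and 5.01-fold lower in ES adipocytes. Ptprc, the leukocyte common antigen CD45, was at 8.02 to 8.86 in eWAT and at 4.52 to 5.0 in culture, and was at least 9.35-fold, 8.63-fold and 9.90-fold lower in the same order. Laptm5, a lysosomal membrane protein of blood cells, is described with the models below. Aif1, a calcium-binding protein of macrophages and microglia, was dim even in tissue, at 5.92 or less, and its bound in 3T3-L1 was at least 1.49-fold.

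The Fc receptors, their adaptors and the integrins followed the same direction in 6 of 7 genes. Fcer1g, the signalling chain shared by Fc receptors, read 9.04, 9.92 and 10.27 in eWAT, 4.89, 4.99 and 5.09 in 3T3-L1, 6.50, 6.09 and 6.05 in PMEF, and 4.91, 5.15 and 5.34 in ES adipocytes. The PMEF arrays stood above the other 2 models without reaching the tissue. Fcer1g fell by 3.53 ± 0.24 in PMEF (adjusted p = 3.76e-08) and by 4.61 ± 0.24 in ES adipocytes (adjusted p = 3.20e-09), and was at least 23.4-fold lower in 3T3-L1 (adjusted p = 1.20e-09). Tyrobp, an adaptor of Trem2 and related receptors, read 8.59, 9.10 and 9.38 in eWAT, 5.05, 4.60 and 5.11 in 3T3-L1, 5.54, 5.77 and 5.73 in PMEF, and 4.71, 5.21 and 4.96 in ES adipocytes. It was at least 14.2-fold lower in 3T3-L1 and fell by 3.34 ± 0.19 in PMEF and by 4.06 ± 0.19 in ES adipocytes. Fcgr3, a low-affinity receptor for immunoglobulin G, was at 8.25 to 9.18 in eWAT, at least 12-fold lower in 3T3-L1, and fell by 3.38 ± 0.19 in PMEF and by 3.77 ± 0.19 in ES adipocytes. The high-affinity receptor Fcgr1 had a mean of 6.73 in eWAT and fell by 1.51 ± 0.17, 1.56 ± 0.17 and 1.69 ± 0.17. Of the integrins, Itgam was at 7.01 to 8.32 in eWAT and at least 5.34-fold lower in each model, while Itgax was at 5.27 to 5.77 and its bounds ran from 1.22-fold to 1.40-fold. The seventh gene, Trem2, was the exception and is taken up below.

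Of the genes for complement, lysozyme, oxidase and lysosome, all 6 fell in PMEF and ES adipocytes and 5 of 6 in 3T3-L1. The 3 chains of complement C1q are encoded by C1qa, C1qb and C1qc, which lie next to one another in the RefSeq annotation of GRCm38.p6 with no protein-coding gene between them. C1qb read 10.24, 11.12 and 11.38 in eWAT, 5.12, 5.31 and 5.41 in 3T3-L1, 6.98, 6.76 and 6.54 in PMEF, and 5.42, 4.91 and 5.39 in ES adipocytes. The 3T3-L1 and ES arrays overlapped, and the PMEF arrays lay above both. C1qb fell by 5.63 ± 0.24 in 3T3-L1, by 4.15 ± 0.24 in PMEF and by 5.68 ± 0.24 in ES adipocytes (adjusted p = 1.97e-10, 6.68e-09 and 3.68e-10). C1qa, at 8.40 to 9.53 in eWAT, fell by 3.63 ± 0.20 in 3T3-L1, by 3.22 ± 0.20 in PMEF and by 3.70 ± 0.20 in ES adipocytes. C1qc, at 9.19 to 10.13 in eWAT, fell by 4.25 ± 0.19 in PMEF and was at least 22.4-fold and 23.7-fold lower in 3T3-L1 and ES adipocytes. Cybb, the catalytic subunit of the phagocyte oxidase, was at 7.75 to 8.73 in eWAT and at least 7.90-fold lower in each model.

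Lyz2, the lysozyme gene of myeloid cells, read 11.12, 11.54 and 11.83 in eWAT, 4.79, 5.30 and 5.35 in 3T3-L1, 8.41, 7.82 and 8.02 in PMEF, and 4.74, 5.04 and 4.72 in ES adipocytes. The PMEF arrays lay apart from the other cultures and from the tissue. Lyz2 fell by 6.36 ± 0.20 in 3T3-L1 (adjusted p = 1.06e-11) and by 3.42 ± 0.20 in PMEF (adjusted p = 7.58e-09), and was at least 83.8-fold lower in ES adipocytes (adjusted p = 2.16e-11). Lyz1 is a near-identical copy, so the split of signal between the 2 genes is uncertain. Its mean was 10.18 in eWAT, 6.27 in PMEF, 6.04 in 3T3-L1 and 5.44 in ES adipocytes, with PMEF within 0.23 of 3T3-L1.

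All 7 markers of tissue-resident and alternatively activated macrophages fell in each model. Retnla, a secreted protein induced by interleukin-4, read 10.03, 10.30 and 10.13 in eWAT, 3.75, 3.86 and 3.88 in 3T3-L1, 3.24, 3.47 and 3.42 in PMEF, and 3.14, 3.12 and 3.31 in ES adipocytes. Every culture array was under the guide. The difference was at least 31.1-fold in 3T3-L1, 28.8-fold in PMEF and 33.0-fold in ES adipocytes (adjusted p at most 4.23e-14). F13a1, the A subunit of coagulation factor XIII, was at 9.59 to 10.37 in eWAT and at least 26.9-fold lower in each model. The neighbouring C-type lectin genes Mgl2 and Clec10a were at 9.12 to 9.49 and 8.63 to 9.60 in eWAT, and at least 15.8-fold and 14.3-fold lower in each model. Folr2, a folate receptor, was at 8.91 to 9.85 in eWAT, was at least 19.0-fold and 20.2-fold lower in 3T3-L1 and ES adipocytes, and fell by 4.15 ± 0.19 in PMEF adipocytes. Lyve1, a hyaluronan receptor, was at 8.69 to 9.86 in eWAT, was at least 17.7-fold and 18.7-fold lower in 3T3-L1 and ES adipocytes, and fell by 4.11 ± 0.21 in PMEF adipocytes. Timd4, a phosphatidylserine receptor used to take up dead cells, was dimmer at 5.94 to 6.61 in eWAT and at least 1.92-fold lower in each model.

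Scavenger and pattern receptors were less uniform. Mrc1, the mannose receptor, read 9.11, 9.90 and 10.16 in eWAT, 4.39, 4.17 and 4.27 in 3T3-L1, 5.68, 5.67 and 5.29 in PMEF, and 3.92, 3.96 and 4.28 in ES adipocytes. It was at least 23.1-fold lower in 3T3-L1 and 24.4-fold lower in ES adipocytes, and fell by 4.18 ± 0.21 in PMEF adipocytes (adjusted p = 1.92e-09). Cd163, which takes up haemoglobin, read 7.54 to 8.73 in eWAT and was at least 7.28-fold lower in each model. Siglec1, a sialic acid receptor, stayed above the guide in all groups. It read 8.21, 8.61 and 9.09 in eWAT, 6.69, 6.75 and 6.58 in 3T3-L1, 6.10, 6.19 and 6.16 in PMEF, and 5.75, 5.79 and 5.77 in ES adipocytes, and fell by 1.96 ± 0.16, 2.48 ± 0.16 and 2.87 ± 0.16 in the 3 models. Msr1 was near the guide even in eWAT, at 4.99, 5.78 and 5.95, and its bounds ran from 1.20-fold to 1.38-fold.

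Cd14, the co-receptor for bacterial lipopolysaccharide, read 6.49, 7.43 and 7.98 in eWAT, 6.27, 6.56 and 6.66 in 3T3-L1, 5.50, 5.36 and 5.53 in PMEF, and 5.10, 5.37 and 5.16 in ES adipocytes. The 3T3-L1 arrays overlapped the lowest eWAT array and stood above the other cultures. Cd14 fell by 0.81 ± 0.26 in 3T3-L1 (adjusted p = 0.0188), and that call was lost in 5 of the 22 alternative settings. Without 3T3-L1 array 1 the difference was -0.70, without eWAT array 2 it was -0.74 and without eWAT array 3 it was -0.47 (limma adjusted p = 0.069, 0.0644 and 0.0899). It fell by 1.84 ± 0.26 in PMEF and by 2.09 ± 0.26 in ES adipocytes (adjusted p = 5.66e-05 and 1.54e-05). Marco, a scavenger receptor of splenic and lung macrophages, was at 4.99 to 5.53 on all 12 arrays, around the guide, and passed the test in none of the 6 comparisons. Its largest difference was -0.16 ± 0.11 in 3T3-L1 against eWAT.

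Of the chemokine receptors and the Ms4a family, Ccr2, the receptor that brings monocytes into tissue, read 5.92, 6.89 and 7.16 in eWAT and between 3.59 and 3.92 in culture. It was at least 2.55-fold lower in each model. Ms4a7 and Ms4a6d, tetraspan membrane proteins of macrophages, were at 6.75 to 7.75 and 7.20 to 8.82 in eWAT and at least 4.19-fold and 7.07-fold lower in each model. Cx3cr1, the fractalkine receptor, differed little, with 6.31, 6.38 and 6.20 in eWAT, 6.23, 5.99 and 6.14 in 3T3-L1, 6.03, 6.37 and 6.48 in PMEF, and 6.09, 5.99 and 5.91 in ES adipocytes. It fell by 0.29 ± 0.11 in ES adipocytes (adjusted p = 0.0398), and the differences of -0.18 ± 0.11 in 3T3-L1 and -0.0045 ± 0.11 in PMEF did not pass (adjusted p = 0.206 and 0.978). The ES call was lost in 7 of the 22 alternatives, among them those without 3T3-L1 array 3, ES array 2 or 3, or eWAT array 1 or 2 (limma adjusted p from 0.0501 to 0.128).

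**Figure D2:**
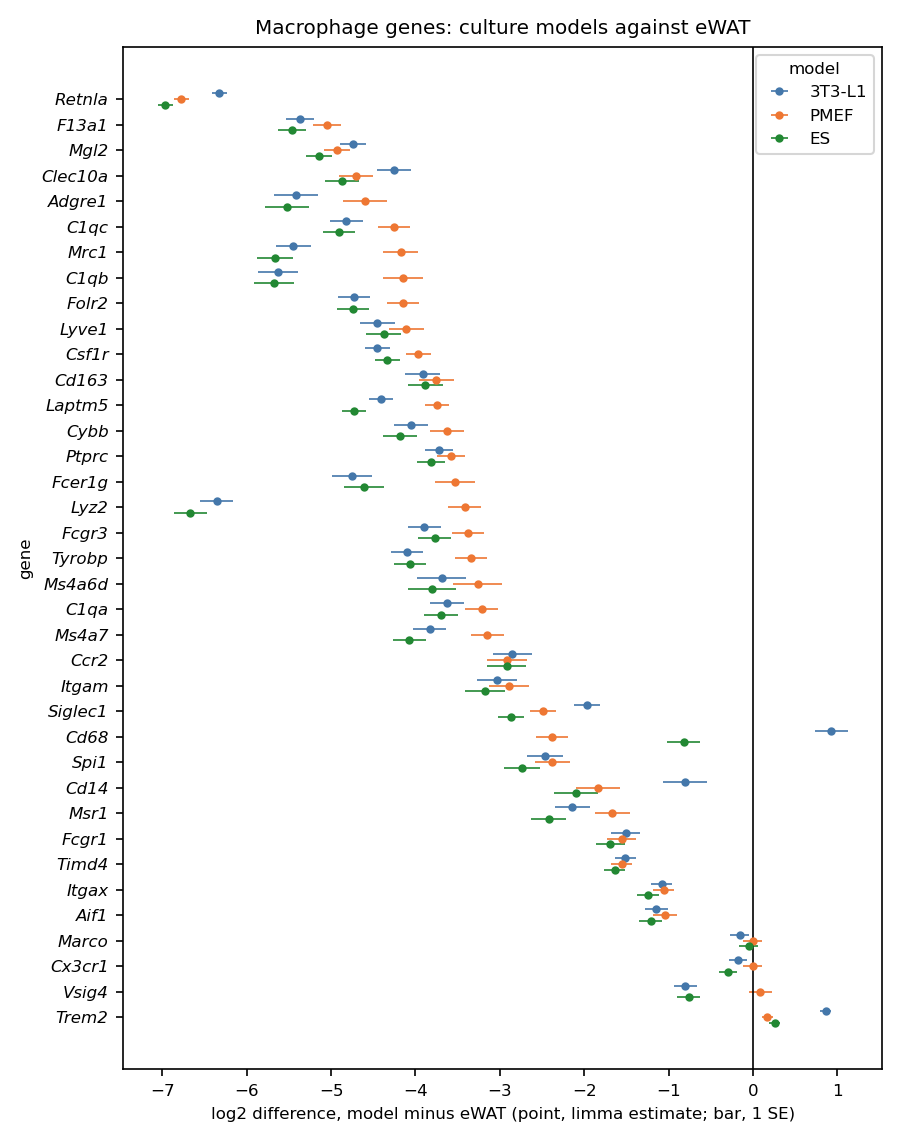
Log2 difference of each macrophage gene between a culture model and eWAT (points, limma estimates; bars, 1 SE; n = 3 arrays per group), ordered by the PMEF difference. Most points lie between -7 and -1, and the values to the right of 0 include Cd68 in 3T3-L1 and Trem2 in all 3 models; fitted differences of genes under the background guide are not bounds.

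Cd68 and Trem2 went against the rest. Cd68, a glycoprotein of lysosomes, read 10.58, 10.37 and 10.30 in 3T3-L1, 8.89, 9.65 and 9.91 in eWAT, 8.59, 8.81 and 8.58 in ES, and 7.19, 7.05 and 7.08 in PMEF adipocytes. The 4 groups did not overlap, and all were above the guide. Cd68 was higher in 3T3-L1 than in eWAT by 0.93 ± 0.19 (adjusted p = 0.000909), fell by 0.82 ± 0.19 in ES (adjusted p = 0.00261), and fell by 2.38 ± 0.19 in PMEF adipocytes (adjusted p = 2.15e-07). The models themselves differed, with PMEF at -3.31 ± 0.19 and ES at -1.75 ± 0.19 against 3T3-L1 (adjusted p = 5.64e-09 and 5.07e-06) and ES at 1.56 ± 0.19 against PMEF (adjusted p = 1.75e-05). Those 3 calls held in each of the 22 alternative settings.

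Trem2, a lipid-sensing receptor of macrophages, read 6.85, 6.80 and 6.94 in 3T3-L1, 6.26, 6.25 and 6.28 in ES, 6.13, 6.19 and 6.20 in PMEF, and 5.97, 5.99 and 6.06 in eWAT. All arrays were above the guide, by the most in 3T3-L1, and the groups did not overlap. Trem2 was higher than in eWAT by 0.86 ± 0.06 in 3T3-L1 (adjusted p = 6.39e-08), by 0.26 ± 0.06 in ES (adjusted p = 0.00426) and by 0.17 ± 0.06 in PMEF adipocytes (adjusted p = 0.0431). The 3T3-L1 call held in all 22 alternatives. The ES call was lost in 1, centring on the reference genes without Hprt (0.05, adjusted p = 0.537). The PMEF call was lost in 15, among them those without 3T3-L1 array 1 or 2, PMEF array 2 or 3, any ES array, or eWAT array 1 or 2, with differences of 0.15 to 0.17 and limma adjusted p from 0.05 to 0.106.

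Lysosome genes other than the 37 were listed because Cd68 is lysosomal, and their counts are given beside it. Of 27 measured, 15 were higher and 11 lower in 3T3-L1 than in eWAT, and 12 were higher and 2 lower in PMEF, where Cd68 was lowest. In ES adipocytes 6 were higher and 15 lower. Against 3T3-L1 adipocytes 18 were lower and 4 higher in ES, which on reference genes became 3 and 13, and 12 were lower and 10 higher in PMEF, which became 8 and 14. The difference between these genes and Cd68 was not tested. The medians against eWAT were 0.41, 0.18 and -0.22, but with the arrays centred on the reference genes they were -0.04, 0.09 and 0.07. The ES values on reference genes here include Hprt, which averaged 4.45 in ES adipocytes and 9.59 to 10.31 in the other groups. Without Hprt, centring moves ES minus eWAT the other way for all genes alike, as for Trem2 from 0.26 to 0.05. Gla, the alpha-galactosidase, was higher by 1.89 ± 0.07, 1.21 ± 0.07 and 1.07 ± 0.07 in 3T3-L1, PMEF and ES adipocytes. Ctsb, a cysteine protease, fell by 0.97 ± 0.07 in 3T3-L1 and by 0.42 ± 0.07 in PMEF adipocytes.

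The second question was whether the culture models differ from one another. PMEF adipocytes had more signal from a subset of the macrophage genes than 3T3-L1 adipocytes did. Of the 37, 13 were higher, where 22.3% of all genes tested were called higher, and 5 were lower, where 27.8% were called lower, with a median difference of 0.32 beside 0.01 over all genes. The count depended on how the arrays were scaled, with 7 higher after centring on array medians, 9 after quantile normalization and 26 after centring on reference genes. These scalings moved the median over all genes by -0.22, -0.08 and 0.36. The share of all genes called under each scaling is not given, so the change in count cannot be called particular to these genes. An alternative that removed the dimmest 33.3% of genes has no result for those genes. The 7 genes that were higher in every alternative that tested them, of 22, were Lyz2, C1qb, Mrc1, Fcer1g, Tyrobp, Laptm5 and Vsig4. The others called higher were Adgre1, C1qc, Csf1r, Fcgr3, Ms4a7 and Folr2, with differences from 0.49 to 0.82. In 3T3-L1 adipocytes none of these 6 was above the guide on any array, and in PMEF Adgre1 and Ms4a7 were not either. Apart from Ms4a7, leaving out 1 array could end their calls, namely 3T3-L1 array 1 or PMEF array 1 or 2 for Adgre1 (0.75 to 0.77), 3T3-L1 array 3 or PMEF array 3 for Csf1r (0.40 and 0.41), 3T3-L1 array 2 or PMEF array 1 for Folr2 (0.48 each), 3T3-L1 array 1 or 2 or any PMEF array for C1qc (0.42 to 0.58), and 3T3-L1 array 2 or 3, PMEF array 2 or 3 or eWAT array 2 for Fcgr3 (0.43 to 0.53).

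Lyz2 was 2.94 ± 0.20 higher in PMEF than in 3T3-L1 (adjusted p = 2.58e-08), where 2 of 3 arrays were above the guide but the mean was under it. C1qb was higher by 1.48 ± 0.24 (adjusted p = 0.000122), Mrc1 at least 1.28-fold (adjusted p = 0.000164), Fcer1g at least 2.02-fold (adjusted p = 0.000666) and Tyrobp at least 1.40-fold (adjusted p = 0.00368). The last 3 were under the guide on all 3T3-L1 arrays, and in PMEF Mrc1 was above it on 2 of 3 arrays. Laptm5 read 6.03, 5.85 and 5.71 in PMEF, 5.10, 5.35 and 5.16 in 3T3-L1, 4.82, 4.95 and 4.88 in ES adipocytes, and 9.22, 9.73 and 9.88 in eWAT. The PMEF arrays lay between the other cultures and the tissue, and Laptm5 was 0.66 ± 0.14 higher than in 3T3-L1 (adjusted p = 0.00137).

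Vsig4, a complement receptor of resident macrophages, read 4.23, 4.08 and 4.01 in PMEF, 2.94, 3.46 and 3.26 in 3T3-L1, 3.44, 2.99 and 3.36 in ES adipocytes, and 3.91, 4.09 and 4.07 in eWAT. All 12 arrays were under the guide, so its order rests on signal near background. By the test it was higher in PMEF than in 3T3-L1 by 0.89 ± 0.14 (adjusted p = 7.98e-05), and it did not pass between PMEF and eWAT, at 0.09 ± 0.14 (adjusted p = 0.64).

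The 5 genes called lower in PMEF than in 3T3-L1 adipocytes were Cd68, Trem2, Cd14, Siglec1 and Retnla. Cd14 fell by 1.03 ± 0.26 (adjusted p = 0.00456), Trem2 by 0.69 ± 0.06 (adjusted p = 6.44e-07) and Siglec1 by 0.52 ± 0.16 (adjusted p = 0.0122). Retnla was under the guide in both groups. The calls of Cd68, Trem2 and Cd14 held in all 22 alternatives, while those of Siglec1 and Retnla did not. They were lost only with the arrays centred on the reference genes, with or without Hprt, which left 3 lower.

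**Figure D3:**
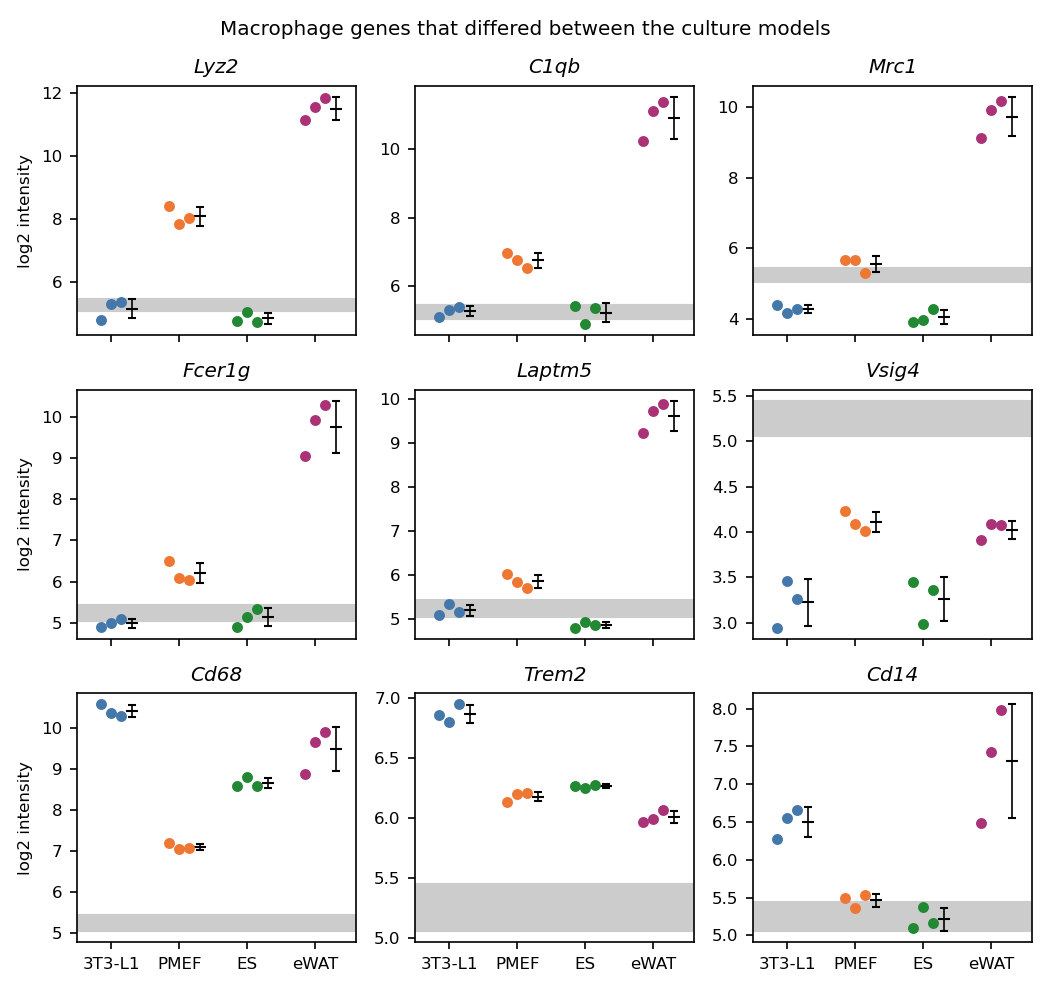
Log2 intensity (vertical axes, which start at different values) of 9 macrophage genes in the 4 groups; points are arrays, ticks with bars are the mean ± SD (n = 3), and the grey band is the range of the background guide over the 12 arrays. Lyz2, C1qb, Mrc1, Fcer1g and Laptm5 are higher in PMEF than in the other 2 cultures, Cd68, Trem2 and Cd14 are highest among the cultures in 3T3-L1, and Vsig4 lies under the band throughout.

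In ES adipocytes 24 of the 37 genes were above the guide on no array, as were 26 in 3T3-L1 adipocytes. Against PMEF adipocytes, ES adipocytes had 14 genes lower, where 19% of all genes were called lower, and 1 was higher, where 23.6% were called higher, with a median of -0.37. Lower in every alternative that tested them, of 22, were Lyz2, C1qb, Mrc1, Fcer1g, Ms4a7, Laptm5 and Vsig4. Lyz2, Laptm5 and Mrc1, under the guide on all ES arrays, were at least 7.84-fold, 1.68-fold and 1.35-fold lower (adjusted p = 2.75e-08, 7.48e-05 and 6.13e-05). C1qb fell by 1.52 ± 0.24 (adjusted p = 0.000142) and Fcer1g by 1.07 ± 0.24 (adjusted p = 0.00236), each with 2 of 3 ES arrays above the guide. Ms4a7 and Vsig4 were under the guide in both models, as were Adgre1, Cybb and Msr1 named next. The other seven called lower were Adgre1, C1qc, Tyrobp, Cybb, Cx3cr1, Folr2 and Msr1, and the 1 higher gene was Cd68. Leaving out 1 array could end the call of Cybb (PMEF array 1, 2 or 3, ES array 1 or 2, or eWAT array 2, at -0.38 to -0.60), of Folr2 (PMEF array 1, ES array 2 or 3, at -0.50 to -0.58) and of Cx3cr1 (any array but 3T3-L1 array 2 and PMEF array 1, at -0.20 to -0.34). Centring on the reference genes left 7 lower and 3 higher. A fit on the 6 PMEF and ES arrays alone, whose spread estimate holds no eWAT array, gave 22 lower. The share of all genes called in these alternatives is not given, so the changes in count cannot be called particular to these genes.

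Against 3T3-L1 adipocytes, ES adipocytes had 6 lower genes, where 23% of all genes were called lower, and no gene higher, where 20.4% were called higher, with a median of -0.12. The 6 were Cd68, Trem2, Cd14, Siglec1, Clec10a and Retnla, and the last 2 were under the guide in both groups. For Clec10a the call ended without 3T3-L1 array 2 or 3 or ES array 2 (-0.54 to -0.63). Without eWAT array 1 the count was 10. At an unadjusted p under 0.05, 0 genes were higher. Siglec1 fell by 0.90 ± 0.16 (adjusted p = 0.000294), Cd14 by 1.29 ± 0.26 (adjusted p = 0.00116) and Trem2 by 0.60 ± 0.06 (adjusted p = 3.78e-06). Cd68 alone kept its call in all 22 alternatives. With the arrays centred on reference genes including Hprt, 27 genes were higher and 1 lower, and without Hprt 1 was higher and 5 lower. With Hprt included, the differences of Trem2, Clec10a and Retnla turned, to 0.13, 0.11 and 0.09, and the median of all genes moved by 0.73. Hprt itself averaged 4.45 in ES adipocytes and 9.59 to 10.31 in the other groups. For these alternatives, too, the share of all genes called is not given. No direction is given for the list as a whole between these models.

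Other cell types were followed beside the macrophage genes. The fibroblast list had 10 of 10 genes higher in PMEF than in 3T3-L1 adipocytes. Its array means were 11.75 to 11.77 in PMEF, 8.68 to 8.73 in 3T3-L1, up to 10.05 in ES adipocytes and 10.16 to 10.28 in eWAT. In ES against 3T3-L1 adipocytes 10 of 10 were also higher, where 0 of the 37 macrophage genes were higher and 6 were lower. As given above, those macrophage counts turned to mostly higher with the arrays centred on reference genes including Hprt. The part of the fibroblast list in the macrophage result was not tested. None of the 12 neutrophil genes was called between PMEF and 3T3-L1 adipocytes by limma, and the array means were 4.44 to 4.56 and 4.37 to 4.42 against 4.80 to 5.40 in eWAT. At an unadjusted p under 0.05 there were 4, and 7 were called higher with the arrays centred on the reference genes. Of 7 mast cell genes 1 was lower in PMEF, and array means were 4.35 to 4.44 in PMEF, 4.45 to 4.48 in 3T3-L1, 4.26 to 4.39 in ES and 5.81 to 6.80 in eWAT. Of 11 T and NK cell genes 2 were higher in PMEF, Thy1 by 4.05 ± 0.06 and Gzma, which was under the guide on all arrays, and Thy1 also stands on the fibroblast list. Of 7 B cell genes 1 was higher and of 8 dendritic cell genes 1 was higher, the actin bundler Fscn1 by 0.79 ± 0.10. Of 5 lymphatic endothelial genes 2 were higher, Pdpn by 3.25 ± 0.16 and Flt4, which was under the guide in both groups, and of 10 endothelial genes 3 were higher and 1 lower.

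Against eWAT many genes of the other blood and vessel cell lists were lower in culture. All 10 endothelial genes fell in each model, with medians of -3.81 (3T3-L1), -3.52 (PMEF) and -3.60 (ES). Of the 7 mast cell genes 6 fell in each model, led by Cpa3, a mast cell protease, which was under the guide in culture and at least 11.9-fold, 11.0-fold and 12.6-fold lower in 3T3-L1, PMEF and ES adipocytes. Of the 8 dendritic cell genes 7 fell and 1 rose in each, and the lectin Cd209a, under the guide in culture, was at least 16.1-fold, 14.9-fold and 17.0-fold lower. Of the 12 neutrophil genes 7, 6 and 7 fell and 1 rose in 3T3-L1, PMEF and ES adipocytes, and of the 11 T and NK cell genes 9, 8 and 9 fell and 0, 1 and 1 rose. Of the 7 B cell genes 4, 1 and 4 fell, with a median of -0.05 in PMEF, and of the 5 lymphatic genes 3 fell in each and 0, 1 and 1 rose. Part of these lists was under the guide on all arrays of both groups, so calls there rest on signal near background. That held for 7, 7 and 6 neutrophil genes in 3T3-L1, PMEF and ES adipocytes. In each model it also held for 4 T and NK, 4 B cell, 2 mast cell and 1 lymphatic genes. The T and NK cell gene that rose was Thy1, by 3.26 ± 0.06 in PMEF, and the lymphatic gene was Pdpn, by 2.97 ± 0.16 in PMEF. The adipocyte list of 10 had 8, 9 and 6 lower. No test compared these groups with the macrophage genes.

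A wider list of 40 leukocyte and macrophage genes, of which 37 were measured, gave 35 lower and 2 higher in 3T3-L1, 33 and 2 in PMEF, and 34 and 2 in ES adipocytes against eWAT. Cd209f, a lectin of resident macrophages, read 8.77, 9.30 and 9.89 in eWAT and between 2.78 and 3.52 in culture, and was at least 17.5-fold, 16.2-fold and 18.5-fold lower in 3T3-L1, PMEF and ES adipocytes. Against 3T3-L1 adipocytes, PMEF adipocytes had 14 higher and 4 lower, which became 10 and 5 on array medians and 26 and 3 on reference genes. Wfdc17, a small secreted protein of activated macrophages, read 8.83, 8.86 and 8.79 in PMEF, 4.12, 4.39 and 4.19 in 3T3-L1, 5.64, 5.62 and 5.56 in ES adipocytes, and 9.39, 10.49 and 10.80 in eWAT. The PMEF arrays came within 0.54 of the lowest eWAT array, and Wfdc17, under the guide on all 3T3-L1 arrays, was at least 12.4-fold higher in PMEF than in 3T3-L1 (adjusted p = 2.97e-09). Cd53, a tetraspanin of leukocytes chosen after its values were seen, read 6.17, 6.01 and 6.09 in PMEF, 5.17, 5.14 and 5.21 in 3T3-L1, 4.32, 4.42 and 4.68 in ES adipocytes, and 8.77, 9.78 and 10.05 in eWAT. Its groups did not overlap. Both Wfdc17 and Cd53 were higher in PMEF than in 3T3-L1 and ES adipocytes under all 4 scalings. Cbr2 of the same list went the other way against 3T3-L1, with lower calls in PMEF and ES adipocytes under all 4 scalings. Its means were 8.32 in PMEF, 6.27 in ES adipocytes and 10.62 in eWAT. The lowest differences of the list from 3T3-L1 were -2.80 in PMEF and -4.85 in ES adipocytes.

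Some genes of that wider list were higher in culture. Hmox1, which breaks down haem, read 11.86, 11.76 and 11.82 in 3T3-L1, 11.85, 11.87 and 11.80 in ES, 10.05, 10.04 and 9.89 in PMEF, and 8.11, 9.06 and 9.51 in eWAT. It was higher than in eWAT by 2.92 ± 0.24, 2.95 ± 0.24 and 1.10 ± 0.24 in 3T3-L1, ES and PMEF adipocytes. Gas6, a ligand of the receptor Mertk on phagocytes, was 2.24 ± 0.12 higher in PMEF adipocytes than in eWAT (adjusted p = 2.89e-09) and 2.74 ± 0.12 higher than in 3T3-L1 (adjusted p = 3.04e-10).

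Both ligands of the Csf1r product were above the guide in the cultures, while Csf2, which encodes granulocyte-macrophage colony-stimulating factor, was under it on all 12 arrays with group means of 3.41 to 3.45. Csf1 read 9.82, 9.81 and 9.69 in PMEF, 8.51, 8.51 and 8.57 in 3T3-L1, 8.55, 8.62 and 8.44 in ES adipocytes, and 7.86, 8.44 and 8.41 in eWAT. The PMEF arrays stood above all others. Csf1 was higher in PMEF adipocytes by 1.54 ± 0.13 against eWAT (adjusted p = 2.46e-07), by 1.25 ± 0.13 against 3T3-L1 (adjusted p = 1.48e-06) and by 1.24 ± 0.13 against ES adipocytes (adjusted p = 3.05e-06), under all 4 scalings. Il34, the other ligand, read 7.32, 7.14 and 7.36 in PMEF, 7.23, 7.12 and 7.27 in eWAT, 6.23, 6.07 and 6.32 in 3T3-L1, and 6.20, 6.16 and 6.14 in ES adipocytes. PMEF adipocytes and eWAT overlapped, and Il34 was 1.07 ± 0.08 higher in PMEF than in 3T3-L1 (adjusted p = 1.07e-07).

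Of all 17 growth factor and receptor genes, 3 were higher and 10 lower than in eWAT in 3T3-L1, 4 and 8 in PMEF, and 1 and 10 in ES adipocytes. Csf2rb, a receptor chain for the Csf2 product, read 8.92, 8.98 and 9.11 in eWAT and between 4.61 and 5.12 in culture. Every culture array was under the guide, and Csf2rb was at least 14.0-fold, 12.9-fold and 14.8-fold lower in 3T3-L1, PMEF and ES adipocytes. Mif, a secreted inflammatory factor, was higher by 1.87 ± 0.07, 0.94 ± 0.07 and 2.46 ± 0.07. Ccl2, the chemokine that binds the Ccr2 product, read 7.89, 9.74 and 9.68 in eWAT, 8.53, 8.66 and 8.23 in PMEF, 7.83, 7.67 and 7.96 in ES, and 6.92, 7.34 and 7.17 in 3T3-L1 adipocytes. The first eWAT array overlapped the ES arrays, and Ccl2 fell by 1.96 ± 0.36 in 3T3-L1 (adjusted p = 0.00035) and by 1.28 ± 0.36 in ES adipocytes (adjusted p = 0.00894), while -0.63 ± 0.36 in PMEF did not pass (adjusted p = 0.173). Without eWAT array 1 the values were -2.57 and -1.89 in 3T3-L1 and ES adipocytes, and without eWAT array 2 the ES call of Ccl2 was lost (-0.96, limma adjusted p = 0.0517).

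**Figure D4:**
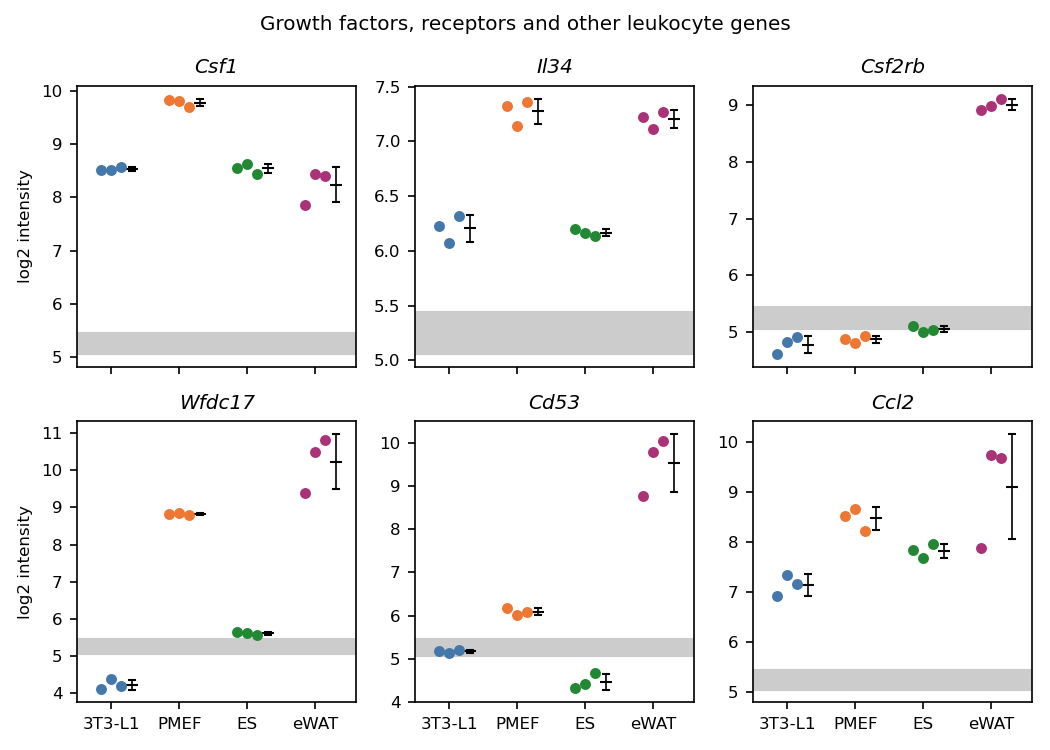
Log2 intensity (vertical axes, which start at different values) of the ligands Csf1, Il34 and Ccl2, the receptor chain Csf2rb, and the leukocyte genes Wfdc17 and Cd53 by group; points are arrays, ticks with bars are the mean ± SD (n = 3), and the grey band is the background guide. Csf1 is highest in PMEF, Csf2rb is in or under the band in culture, and Wfdc17 in PMEF comes close to the lowest eWAT array.

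Of 14 genes tied to alternative activation, 6, 8 and 7 were lower than in eWAT in 3T3-L1, PMEF and ES adipocytes, and none was higher. On reference genes, with Hprt included, 14 were lower in 3T3-L1, and 5 lower and 2 higher in ES adipocytes, where Hprt averaged 4.45. Irf4, a transcription factor induced by interleukin-4, read 6.50, 9.22 and 9.80 in eWAT and between 4.08 and 4.76 in culture, all under the guide. Irf4 was at least 9.93-fold, 9.17-fold and 10.5-fold lower in 3T3-L1, PMEF and ES adipocytes (adjusted p = 2.31e-05, 7.35e-05 and 7.39e-05). The fitted Irf4 difference of 3T3-L1 from eWAT was -4.27, and without eWAT array 1 or 3 it was -5.28 or -3.63. The textbook markers Arg1 and Chil3, chosen after their values were seen, had eWAT means of 4.64 and 3.65, under the guide, although Retnla was bright. Of 16 genes of lipid-handling macrophages, 6, 7 and 5 were higher and 4, 2 and 4 lower in 3T3-L1, PMEF and ES adipocytes. On reference genes, again with Hprt included, these became 3, 7 and 10 higher and 10, 4 and 2 lower. Gpnmb, a glycoprotein of lipid-laden macrophages, was 2.20 ± 0.15 higher in PMEF (adjusted p = 4.22e-08) and fell by 1.98 ± 0.15 in 3T3-L1 adipocytes (adjusted p = 8.27e-08). Lgals3, a galectin, was higher by 2.08 ± 0.08 in 3T3-L1 and 1.44 ± 0.08 in ES adipocytes. The erythroid list had 3 measured genes, of which 2 were lower and 1 higher in each model.

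The 3 eWAT arrays differed among themselves in these genes more than in most. The first array was the lowest of the 3 for 35 of the 37, and the third the highest for 34. The median deviations from the eWAT mean were -0.51, 0.12 and 0.41. The highest minus the lowest eWAT array had a median of 0.93 over the 37 genes and 0.21 over all genes. Adgre1 spanned 1.46, Itgam 1.31 and Fcer1g 1.23, while Retnla spanned 0.27 and Mgl2 0.37. In the cultures the median SD of the 37 genes was 0.14, 0.12 and 0.13, against 0.48 in eWAT.

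Some other gene groups deviated on the same arrays, and others did so little. The wider leukocyte list was at -0.56, 0.16 and 0.40, the mast cell list at -0.81, 0.37 and 0.31, the lymphatic list at -0.38, 0.13 and 0.24, and the neutrophil list at -0.24, 0.16 and 0.24. The T and NK cell list was at -0.15, 0.03 and 0.10, the B cell list at -0.04, -0.07 and 0.04, and the dendritic cell list at -0.0009, -0.05 and 0.04. The adipocyte list was at 0.06, -0.03 and -0.02 and the endothelial list at 0.19, -0.06 and -0.08. What differed between the tissue pieces was not tested. Leaving out the first eWAT array moved no difference of the 37 genes from a model by more than 1.38-fold.

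**Figure D5:**
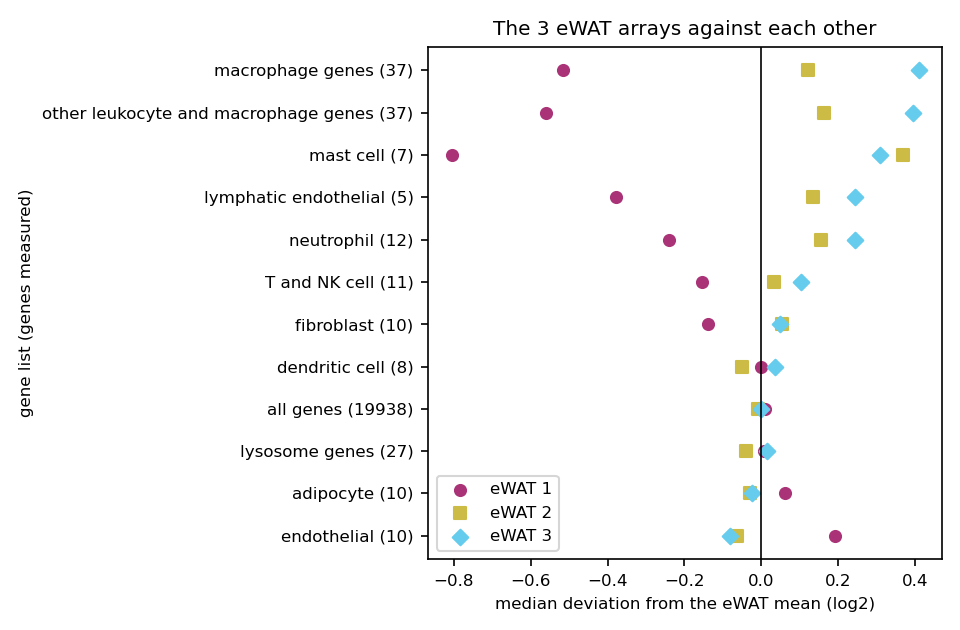
Median deviation of each gene list from the eWAT mean (horizontal axis, log2; number of genes measured in brackets) on eWAT arrays 1, 2 and 3. The macrophage, wider leukocyte and mast cell lists are at -0.51, -0.56 and -0.81 on array 1, while all genes lie at 0.01.

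Apart from the 37, the 10 genes most like their mean standardized value over the 12 arrays were Pld4, Lyz1, Clec4a1, St8sia6, Cyth4, Ms4a6c, Btk, Tbxas1, Cfp and Itgb2, with Pearson r from 0.993 to 0.998. The arrays share their groups, so these values mostly describe tissue against culture. Pld4 averaged 9.19 in eWAT, 5.19 in PMEF, 4.78 in 3T3-L1 and 4.46 in ES adipocytes. Among the 37 the same measure was 0.82 for Cd14, 0.57 for Vsig4, 0.49 for Cx3cr1, 0.27 for Marco, 0.24 for Cd68 and -0.54 for Trem2, and at least 0.92 for each of the others.

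Spi1 was above the guide in eWAT alone. The bases before the starts of the genes were searched for GAGGAA, a core that PU.1 and related ETS factors bind, on both strands. RefSeq windows of 250 bases were on hand for 26 of the 37 genes (31 windows, some overlapping). GAGGAA was in 17 of 31, or 54.8%, and in 7639 of 32851 windows of all genes, or 23.3%. The longer form GAGGAAGT, which contains the first, was in 2 of 31, those of C1qc and Retnla, or 6.45%, and in 802 of all windows, or 2.44%. A match is a description and not a binding site, and no test was made. Windows of 5 genes that hold it are shown because they took different courses, Mrc1, C1qb and Laptm5 being highest in eWAT and next in PMEF, and Cd68 and Trem2 being highest in 3T3-L1. They are written 5′ to 3′ on the gene's strand, ending at the base before the start, with the core or its reverse complement TTCCTC in capitals, from RefSeq on GRCm38.p6. The Mrc1 window is chr2:14229164-14229413 on the plus strand, C1qb chr4:136886201-136886450 on the minus strand, Laptm5 chr4:130913066-130913315 on the plus strand, Cd68 chr11:69666171-69666420 on the minus strand and Trem2 chr17:48346151-48346400 on the plus strand.
Mrc1: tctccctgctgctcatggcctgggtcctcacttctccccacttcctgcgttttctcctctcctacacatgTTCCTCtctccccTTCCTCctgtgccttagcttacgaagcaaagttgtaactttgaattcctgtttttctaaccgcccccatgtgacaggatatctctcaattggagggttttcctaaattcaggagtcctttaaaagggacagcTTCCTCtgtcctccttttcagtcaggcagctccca
C1qb: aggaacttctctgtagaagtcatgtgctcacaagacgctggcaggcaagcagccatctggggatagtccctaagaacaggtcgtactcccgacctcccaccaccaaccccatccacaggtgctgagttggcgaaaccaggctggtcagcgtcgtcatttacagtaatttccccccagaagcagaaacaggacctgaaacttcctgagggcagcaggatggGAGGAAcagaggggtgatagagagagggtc
Laptm5: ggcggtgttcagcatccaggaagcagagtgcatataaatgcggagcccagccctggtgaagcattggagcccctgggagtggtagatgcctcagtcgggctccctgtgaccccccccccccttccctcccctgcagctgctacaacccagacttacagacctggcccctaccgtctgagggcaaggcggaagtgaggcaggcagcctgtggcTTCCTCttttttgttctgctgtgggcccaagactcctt
Cd68: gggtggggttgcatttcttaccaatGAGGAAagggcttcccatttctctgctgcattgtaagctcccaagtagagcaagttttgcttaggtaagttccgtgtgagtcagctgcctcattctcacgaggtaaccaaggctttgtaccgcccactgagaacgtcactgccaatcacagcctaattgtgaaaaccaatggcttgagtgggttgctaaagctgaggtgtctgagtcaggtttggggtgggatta
Trem2: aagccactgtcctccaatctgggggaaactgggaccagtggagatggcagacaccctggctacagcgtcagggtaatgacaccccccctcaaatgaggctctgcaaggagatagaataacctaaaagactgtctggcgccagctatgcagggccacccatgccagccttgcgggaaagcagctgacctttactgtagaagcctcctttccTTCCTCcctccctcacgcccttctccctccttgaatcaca
The Mrc1 window holds the core 3 times and the other four once each, on either strand. The windows of Lyz2 and Fcer1g do not hold these letters.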

How the data were processed

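Total RNA was extracted with TRIzol and 300 ng were labelled with the Ambion WT Expression kit, per the labels' protocols. The authors deposited log2 intensities of 35556 probe sets on 12 arrays. How they normalized the arrays, and with which software, is not given in the sources used here, and base 2 was inferred from the range (1.11 to 13.48). The values were used as deposited. Probe sets with exactly 1 gene symbol in the platform annotation (21789) were kept, 1621 with several and 12146 with none were left out, and the brightest probe set stood for a gene, which left 19938 genes. In R 4.3.3, limma 3.58.1 was fitted to all 12 arrays with 4 group means (8 residual and 4.88 prior degrees of freedom), and the 6 comparisons were contrasts of that fit with moderated standard errors and Benjamini-Hochberg adjustment over all genes. The number of arrays limits the precision.

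The 37 genes and the other gene lists were chosen with earlier results of these data known. All 37 are named whatever their result. From the other lists the 3 largest rises and the 3 largest falls of a comparison could be named, besides genes said to be chosen after their values were seen and the 10 genes most like the 37. The background guide from olfactory receptor probe sets was added after the values were seen. "At least" folds set the brighter group's mean against the mean over the dimmer group's arrays of the higher of the guide and the gene's own value.

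Data were simulated for PMEF against eWAT over 19938 genes, with 50 genes planted at each log2 change of 0.5, 1, 2 and 4. The fit called 32, 49, 49 and 50 of them, in that order, with 9 false calls. In the deposited data the median SD of the macrophage genes was 0.48 in eWAT and 0.12 in PMEF adipocytes. There 24.7% of all genes were called higher and 21.6% lower. Whether the simulated counts carry over to such unequal spread and so many changes was not tested, so they describe the simulated data alone. The alternatives were quantile normalization, centring on array medians, on reference genes and on reference genes without Hprt, a filter that removed the dimmest 33.3% of genes, averaged probe sets per gene, only the arrays compared, a replicate block, a trended robust variance, array weights, and leaving out each array in turn. Genes that the filter removed were not tested in that alternative, and a call is said to be kept where every alternative that tested it kept it. The labels do not say that replicate numbers pair the arrays, and the main fit treated them as unpaired. Correlations of same-numbered deviations lay between -0.14 and 0.11, and whether a number marks a shared batch was not tested. Promoter windows and gene order came from RefSeq on GRCm38.p6, and the sources used here do not state the genome build behind the probe sets.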

Additional observations from a re-analysis of the deposited data

Results flagged for a closer look

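Cd68 was singled out because its difference from eWAT ran in opposite directions in different models, higher on every 3T3-L1 array and lower on every PMEF and ES array than on any eWAT array. The difference between models was itself tested, and Cd68 was at -3.31 in PMEF minus 3T3-L1 and at -1.75 in ES minus 3T3-L1 adipocytes on the log2 scale (limma adjusted p = 5.64e-09 and 5.07e-06). No other of the 37 genes met this condition.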

How the results depend on the processing

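No called difference from eWAT changed sign in an alternative. Of the 33, 33 and 35 genes lower in 3T3-L1, PMEF and ES adipocytes, 32, 33 and 34 kept the call in every alternative that tested them, of 22. The 1 gene higher in PMEF than in eWAT, Trem2, was lost, to a count of 0, on array medians, on reference genes with or without Hprt, with only the arrays compared, with the replicate block and with a trended robust variance. In ES minus eWAT the count of higher genes was 0 on reference genes without Hprt. The replicate block changed no count of calls by over 1.5 times apart from that PMEF count of 0. Calls between models depended on the scale of the arrays, and the cause was not tested. The shares of all genes called in the alternatives are not given beside the counts that follow. In PMEF minus 3T3-L1 there were 7 higher on array medians and 26 higher and 3 lower on reference genes, with Hprt or without. In ES minus 3T3-L1 there were 12 lower on array medians, 27 higher and 1 lower on reference genes, and 1 higher without Hprt. In ES minus PMEF there were 3 higher and 7 lower on reference genes, and 22 lower with only the arrays compared. Leaving out each array in turn gave 0 to 1 higher in PMEF minus eWAT, 32 to 33 lower in 3T3-L1 minus eWAT, 34 to 35 lower in ES minus eWAT, 10 to 19 higher and 5 to 6 lower in PMEF minus 3T3-L1, 5 to 10 lower in ES minus 3T3-L1 (10 without eWAT array 1), and 11 to 20 lower in ES minus PMEF.

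Centring on the reference genes shifts all genes alike, and it turned the sign of 49 of the log2 differences over the 6 comparisons, of which 25 were called before or after it and are given here. In ES minus 3T3-L1, with Hprt included, they became 0.63 for Adgre1, 0.66 for C1qa, 0.69 for C1qb, 0.65 for C1qc, 0.51 for Mrc1, 0.59 for Itgam, 0.57 for Itgax, 0.55 for Fcgr1, 0.13 for Trem2, 0.11 for Clec10a, 0.092 for Retnla, 0.34 for Mgl2, 0.49 for Ms4a7, 0.41 for Laptm5, 0.60 for Cybb, 0.67 for Aif1, 0.61 for Cx3cr1, 0.67 for Ccr2, 0.71 for Folr2, 0.60 for Timd4, 0.64 for F13a1 and 0.64 for Ptprc. In PMEF minus 3T3-L1, Timd4 became 0.32, and 0.33 without Hprt. In ES minus PMEF, Cx3cr1 became 0.083 and Marco 0.33. Hprt averaged 4.45 on the ES arrays, under the background guide. The files hold no detection calls, and dim genes are bounded by signal over background alone.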
